A study of Homo sapiens with 12 samples.

Results

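The human HOX genes are a family of homeodomain transcription factors that lie in 4 clusters, HOXA to HOXD, on separate chromosomes. They were followed here in DU145 cells, an established line of androgen receptor negative prostate cancer. Members were the protein-coding genes of the count table whose symbol is HOXA, HOXB, HOXC or HOXD followed by a number, which gave 39 of the 28747 genes in the table. HOXA holds 11 of them (chromosome 7, 27092993 to 27200091, minus strand) and HOXB 10 (chromosome 17, 48528526 to 48728750, minus strand). HOXC holds 9 (chromosome 12, 53938831 to 54056030, plus strand), as does HOXD (chromosome 2, 176092721 to 176190907, plus strand), in coordinates of GENCODE release 44 on GRCh38. RNA-seq libraries came from 4 groups of 3 replicates. These were cells with a control hairpin (shCtrl) or the knockdown hairpin of the study (shSigma), each grown in adhesion or as tumor spheres. All 4 groups are DU145 cells that carry a stably transduced lentiviral short hairpin, and which of the study's knockdown hairpins was sequenced is not given in the sources used here. With 1 transduced population per hairpin, an effect of the knockdown and a difference between the transduced populations cannot be told apart. The same holds for attachment and medium, since spheres were grown without attachment and in serum-free medium with growth factors. The replicates are described as independent, and p-values measure the spread between these libraries.

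Total counts were 16472722 to 26957777 per library. Levels are given in CPM, read counts relative to the TMM-scaled library size, as the mean ± SD with n = 3 where an error is printed. Differences were tested with edgeR's quasi-likelihood test, whose p-values were adjusted by Benjamini-Hochberg here and throughout. The summed level of 5 epithelial markers (KRT8, KRT18, KRT19, EPCAM and CDH1) was 878 to 964 CPM in adherent shCtrl, 1140 to 1452 in adherent shSigma, 2284 to 2348 in sphere shCtrl and 896 to 954 in sphere shSigma libraries, so that it moved with hairpin and culture. Of 5 markers of androgen-responsive luminal cells, 3 had at most 3 counts in every library. The sum of the 5 was 13.7 to 14.5 CPM in adherent shCtrl and 18.5 to 22.5 in adherent shSigma libraries. In spheres it was 6.45 to 7.02 CPM with shCtrl and 10.8 to 12.8 with shSigma. Summed leukocyte markers reached 1.33 CPM, endothelial markers 2.87 CPM and fibroblast and muscle markers 25.0 CPM (LUM and MYH11 at 0). The part of these differences in the results below was not tested. In bulk cultures, fewer cells with a transcript and less of it per cell cannot be told apart.

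HOX proteins set positional identity along the body axis, and their genes are ordered on the chromosome as they are used along it. Genes of the same number in different clusters are paralogs, and low numbers are called anterior and high numbers posterior. Adult cells tend to keep a HOX pattern of the region they came from. In the prostate, HOXB13 is the best known member, a posterior gene of the luminal lineage whose protein works with the androgen receptor. HOX proteins bind DNA together with TALE homeodomain cofactors (PBX, MEIS and PKNOX), Polycomb complexes keep the clusters silent where they are not used, and Trithorax complexes and retinoic acid act in the other direction. Below, paralog groups 1 to 3 are called anterior, 4 to 8 central and 9 to 13 posterior, which gives 8, 15 and 16 members.

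DU145 cells used a broad but uneven part of the 4 clusters. A mean of at least 1 CPM in any group was reached by 27 of the 39 members and one of at least 10 CPM by 10. Divided by exon length, the highest members in adherent shCtrl cells were HOXB7 at 10.8 ± 1.31 CPM per kb and HOXB9 at 10.1 ± 0.209, whose spreads overlap. HOXC10 (5.62 ± 0.663), HOXA10 (4.86 ± 0.132), HOXC9 (3.98 ± 0.528) and HOXA5 (3.51 ± 0.392 CPM per kb) came next. HOXB9 led in adherent shSigma cells with 22.4 ± 1.53 CPM per kb, above HOXB7 with 11.4 ± 1.95. In spheres of shCtrl cells HOXB7 (16.5 ± 0.89 CPM per kb) was ahead of HOXC10 (9.19 ± 0.631), HOXA5 (8.39 ± 1.47) and HOXB9 (6.55 ± 0.193), while in shSigma spheres HOXB9 (15.4 ± 0.154) and HOXB7 (15.1 ± 1.2 CPM per kb) overlapped within their spread. The level did not follow the position in a cluster. In HOXB the high HOXB7 and HOXB9 stood on either side, by number, of the lower HOXB8, and in HOXA the well expressed HOXA10 stood beside HOXA9 at 0.249 ± 0.0588 CPM per kb in adherent shCtrl cells.

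**Figure D1:**
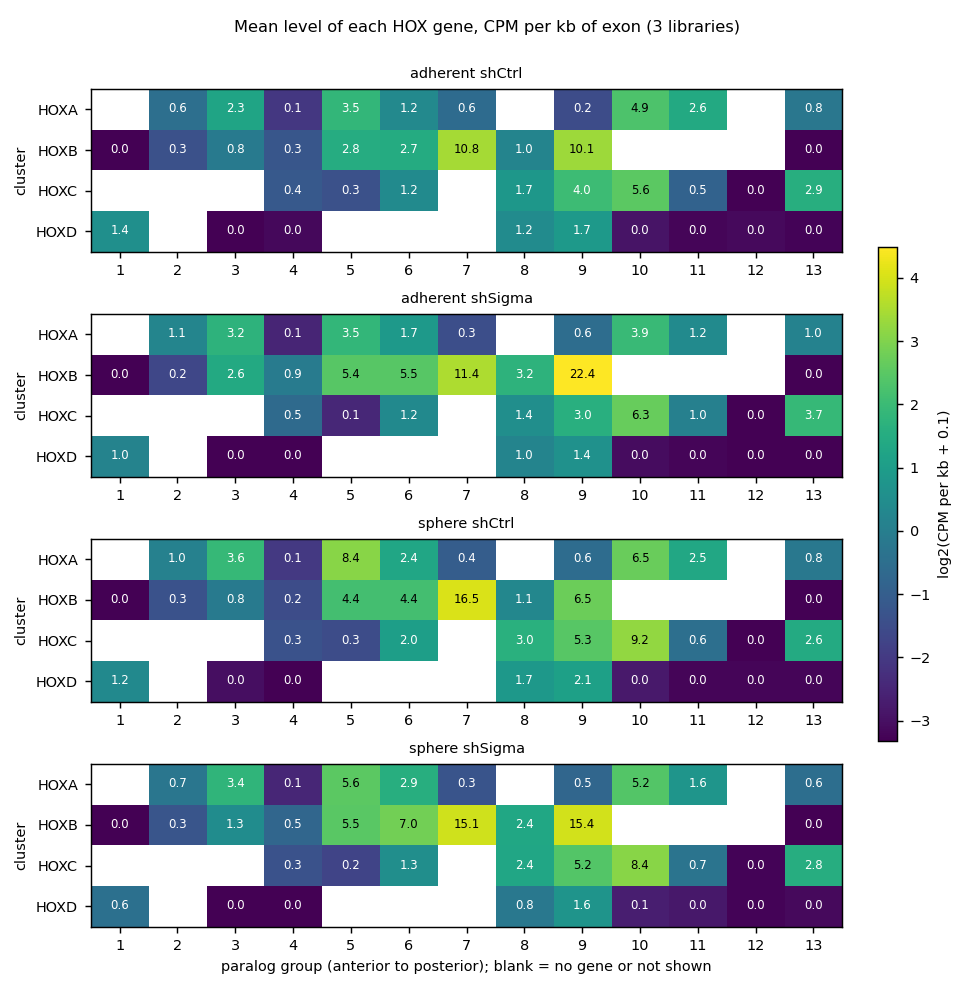
Mean level of HOX genes in CPM per kb of exon (number in each cell, mean of 3 libraries), with 1 panel per group, clusters as rows and paralog groups 1 to 13 as columns. Colour is log2 of CPM per kb plus 0.1, and blank cells are positions without a gene or not shown. HOXB7 and HOXB9 are the brightest positions except in sphere shCtrl, where HOXC10 and HOXA5 lie between them. HOXB1, HOXB13, HOXC12, HOXD3, HOXD4 and HOXD10 to HOXD13 stay at or near 0.

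The posterior ends of the clusters differed. HOXB13, which lies 98.4 kb beyond HOXB9, had 0 counts in each of the 12 libraries, and the genes PRAC1 and PRAC2 beside it were also at 0. A count of 0 allows up to 3 counts, which is 0.115 to 0.176 CPM depending on the library and covers counting error only. This bound holds only if the gene was counted. The annotation used in counting is not given, so for genes at 0 in every library a silent gene and an uncounted one cannot be told apart. HOXB1, the hindbrain gene at the other end of the cluster, was at 0 as well. In all, 8 members had at most 3 counts in every library, and 6 of them were posterior, namely HOXB13, HOXC12, HOXD10, HOXD11, HOXD12 and HOXD13. The other two were HOXB1 and HOXD4. HOXD3 had 5 counts in 1 library of sphere shCtrl cells and 0 in the 11 others. The remaining posterior genes were above this floor, with HOXA13 and HOXC13, paralogs of HOXB13 and HOXD13, at 3.88 ± 0.344 and 6.76 ± 0.573 CPM in adherent shCtrl cells.

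Summed over its members, the HOXB cluster was higher with shSigma in both cultures. In adherent cells the HOXB sum was 64.7 ± 5.08 CPM in shCtrl and 129 ± 4.84 CPM in shSigma. In spheres it was 71.5 ± 4.79 and 108 ± 0.693 CPM, and in both cultures all 3 shSigma libraries lay above all 3 shCtrl libraries. HOXB held 38.2% of all HOX counts in adherent shCtrl and 54% in adherent shSigma cells, against 32.8% and 46.4% in spheres. The HOXA sum was 57.5 ± 2.12 and 61.3 ± 0.881 CPM in adherent cells and 81.8 ± 9.71 and 69.5 ± 0.945 in spheres. Its hairpins did not overlap in either culture, with shSigma higher in adherent cells and lower in spheres. For HOXC the sums were 37.9 ± 1.55 and 40.8 ± 1.76 CPM, then 54.3 ± 1.95 and 49.1 ± 1.34. The HOXC hairpins overlapped in adherent cells and did not in spheres, where shSigma was lower. For HOXD they were 9.31 ± 0.304 and 7.42 ± 0.429 CPM in adherent cells and 10.9 ± 0.996 and 6.45 ± 0.352 CPM in spheres, and the shSigma libraries lay below the shCtrl libraries in both cultures. Such separation was common, since the hairpins did not overlap for 57.9% of all single genes tested in adherent cells and 66.8% in spheres. These sums weigh long and abundant genes most, and differences in them were not tested.

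**Figure D2:**
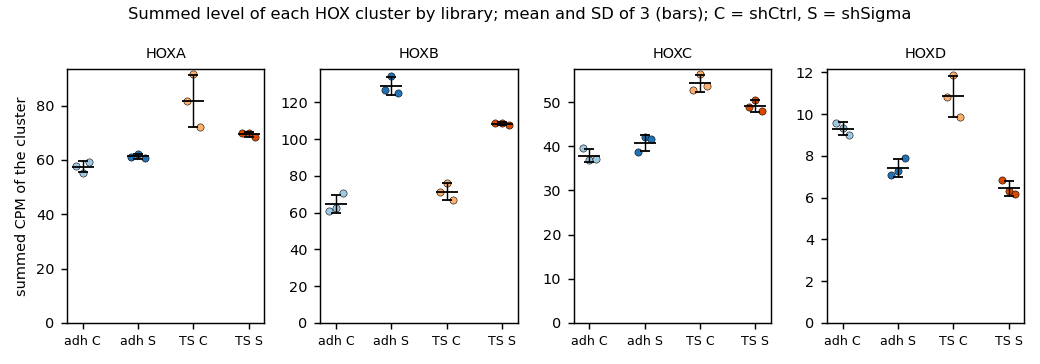
Summed CPM of the members of each HOX cluster, 1 point per library, for adherent (adh) and tumor sphere (TS) cells with shCtrl (C) or shSigma (S). Bars are the mean and SD of 3 libraries, and the HOXB panel shows both shSigma groups above 100 CPM and both shCtrl groups below 80 CPM.

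The first question was which HOX genes differed after knockdown in each culture. In adherent cells, 28 of the 39 members had enough counts to be tested, and 11 rose and 4 fell at an adjusted p under 0.05. Among all 13764 genes tested, 22.3% were called higher and 27.7% lower, so that a call as such was common. Groups of libraries did not overlap for 18 of the 28 members and for 57.9% of all genes tested. The median log2 fold change of the 28 was 0.32, beside -0.01 over all genes. The calls were not spread evenly over clusters. HOXB had 6 of 8 tested members higher and 0 lower, HOXA had 4 of 10 higher and 3 lower, HOXC 1 of 7 each way, and HOXD 0 of 3 in either direction. By position, 4 of 6 anterior, 4 of 12 central and 3 of 10 posterior members rose, and 0, 1 and 3 fell.

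In tumor spheres, 5 of 28 tested members rose and 7 fell, where 30.2% of all 13774 genes tested were called higher and 30.9% lower. Groups did not overlap for 12 of the 28, beside 66.8% of all genes. The median log2 fold change was -0.12, against 0.00 over all genes. All 5 members that rose were in HOXB, and of the 7 that fell 3 were in HOXA, 2 in HOXC and 2 in HOXD. The cultures have their own shCtrl libraries, so their calls can be set beside each other. Both cultures used the same transduced population of each hairpin. A difference between those populations would be shared by both and cannot be told apart from an effect of the knockdown. HOXB3, HOXB4, HOXB6, HOXB8 and HOXB9 rose and HOXA10 and HOXA11 fell in both. These are 7 of the 28 members tested in both cultures, where 31.9% of all 13391 genes tested in both were called the same way. Of the members called in adherent cells 46.7% were thus shared with spheres, beside 62.1% of all genes called there, and of those called in spheres 58.3% were shared, beside 50.8% of all genes. In opposite directions 0 members were called, beside 4.12% of all genes.

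**Figure D3:**
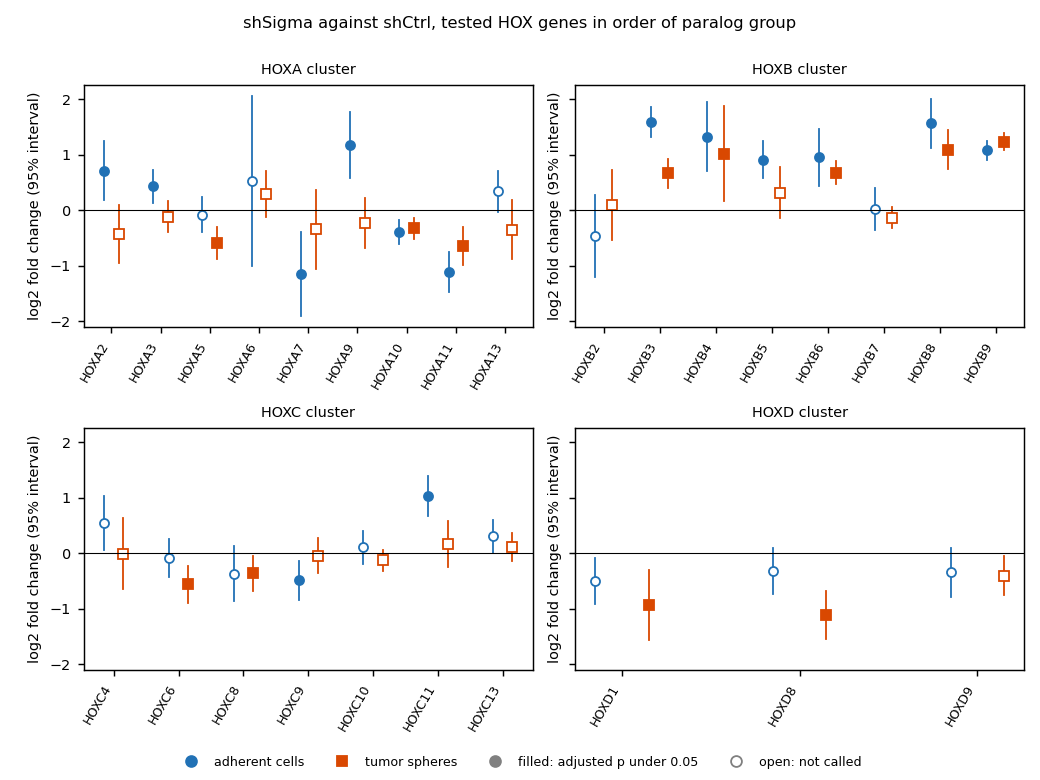
Log2 fold change of shSigma against shCtrl with its 95% interval for the tested HOX genes named in the text, in order of paralog group, with 1 panel per cluster, circles for adherent cells and squares for tumor spheres. Filled symbols have an adjusted p under 0.05, and HOXB3 to HOXB9, apart from HOXB7, lie above 0 in both cultures while HOXA10, HOXA11 and the HOXD genes lie below.

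HOXB9, a posterior gene known from the thoracic skeleton and mammary gland, had the smallest adjusted p of all members in both cultures. In adherent cells HOXB9 was at 26.1, 25.6 and 26.7 CPM in shCtrl and at 53.6, 58.5 and 61.4 CPM in shSigma. In tumor spheres HOXB9 was at 17.5, 16.7 and 16.6 CPM in shCtrl and at 40.4, 39.7 and 39.7 CPM in shSigma. Every shSigma library was above every shCtrl library of its culture, and the sphere libraries were below the adherent libraries of the same hairpin. The rise was 2.12-fold in adherent cells (log2 fold change 1.08, SE 0.0715, adjusted p = 3.07e-05) and 2.35-fold in spheres (1.24, SE 0.071, adjusted p = 4.73e-08). HOXB9 shares no exon with another gene of the table, so its count is not divided with a neighbour.

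HOXB3 and HOXB4 are anterior and central genes that also act in blood progenitors. In adherent cells HOXB3 was at 5.64, 5.75 and 6.94 CPM in shCtrl and at 17.7, 19.7 and 20.4 CPM in shSigma. In tumor spheres HOXB3 was at 5.68, 6.18 and 6.04 CPM in shCtrl and at 9.57, 10.4 and 8.53 CPM in shSigma. The shSigma libraries were higher without overlap in both cultures, by 3.02-fold in adherent cells (1.59, SE 0.113, adjusted p = 3.98e-05) and 1.58-fold in spheres (0.67, SE 0.119, adjusted p = 4.56e-04). The sphere shSigma libraries lay between the shCtrl level and the adherent shSigma level. In adherent cells HOXB4 was at 0.499, 0.55 and 0.907 CPM in shCtrl and at 1.81, 1.79 and 1.54 CPM in shSigma. In tumor spheres HOXB4 was at 0.878, 0.221 and 0.403 CPM in shCtrl and at 0.957, 0.9 and 1.17 CPM in shSigma. HOXB4 was low throughout, with shSigma above shCtrl in every library of both cultures. Its log2 fold change was 1.33, SE 0.264, adjusted p = 0.00445 in adherent cells and 1.02, SE 0.394, adjusted p = 0.0405 in spheres. The sphere call of HOXB4 was lost in DESeq2 (adjusted p = 0.121) and without sphere shSigma replicate 1, 2 or 3 or sphere shCtrl replicate 2 or 3 (adjusted p 0.0628 to 0.132). Its log2 fold change in spheres was 0.67 without sphere shCtrl replicate 2 and 1.65 without sphere shCtrl replicate 1. HOXB3 shares 6.4% of its exon bases with HOXB4 and HOXB6 on the same strand, and how such reads were assigned is not given in the sources used here.

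HOXB5, HOXB6 and HOXB8 are central genes of the same stretch. In adherent cells HOXB8 was at 1.96, 2.83 and 2.76 CPM in shCtrl and at 8.28, 8.24 and 6.75 CPM in shSigma. In tumor spheres HOXB8 was at 3.04, 2.87 and 2.22 CPM in shCtrl and at 5.54, 6.51 and 5.3 CPM in shSigma. The 3 shSigma libraries were above the 3 shCtrl libraries in each culture, with a rise of 2.96-fold in adherent cells (1.57, SE 0.187, adjusted p = 3.91e-04) and 2.14-fold in spheres (1.10, SE 0.163, adjusted p = 1.14e-04). In adherent cells HOXB6 was at 5.45, 7.7 and 8.04 CPM in shCtrl and at 14.5, 17.1 and 11 CPM in shSigma. In tumor spheres HOXB6 was at 12.1, 11.8 and 10.4 CPM in shCtrl and at 17.4, 18.5 and 19.1 CPM in shSigma. HOXB6 was highest in shSigma spheres and lowest in adherent shCtrl cells, and the hairpins did not overlap in either culture. Its log2 fold change was 0.95, SE 0.218, adjusted p = 0.00869 in adherent cells and 0.68, SE 0.0941, adjusted p = 6.49e-05 in spheres. Of the HOXB6 exon bases, 16.6% are shared on the same strand, with HOXB3 there, and 16.3% lie opposite other transcripts, with HOXB-AS3 there. In adherent cells HOXB5 was at 5.26, 4.36 and 5.8 CPM in shCtrl and at 10.3, 10.5 and 9.45 CPM in shSigma. In tumor spheres HOXB5 was at 7.55, 11.1 and 5.89 CPM in shCtrl and at 10.7, 10.9 and 8.84 CPM in shSigma. For HOXB5 the hairpins separated in adherent cells (0.91, SE 0.141, adjusted p = 0.00136) and overlapped in spheres (0.32, 95% interval -0.14 to 0.77, adjusted p = 0.204).

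HOXB7 and HOXB2 were the tested HOXB members that passed in neither culture. In adherent cells HOXB7 was at 15.7, 14.9 and 18.6 CPM in shCtrl and at 20.04, 17.8 and 14.2 CPM in shSigma. In tumor spheres HOXB7 was at 24.1, 26.6 and 24.4 CPM in shCtrl and at 23.5, 20.9 and 24.4 CPM in shSigma. HOXB7, a gene also active in breast and other carcinomas, overlapped between hairpins in both cultures. Its log2 fold changes were 0.03, 95% interval -0.35 to 0.40, adjusted p = 0.911 in adherent cells and -0.13, 95% interval -0.31 to 0.05, adjusted p = 0.192 in spheres, and neither interval reaches the HOXB8 estimate of its culture. HOXB2, a hindbrain gene, had group means of 0.526 to 0.780 CPM, and its log2 fold changes were -0.47, 95% interval -1.21 to 0.27, adjusted p = 0.258 and 0.10, 95% interval -0.53 to 0.73, adjusted p = 0.79.

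**Figure D4:**
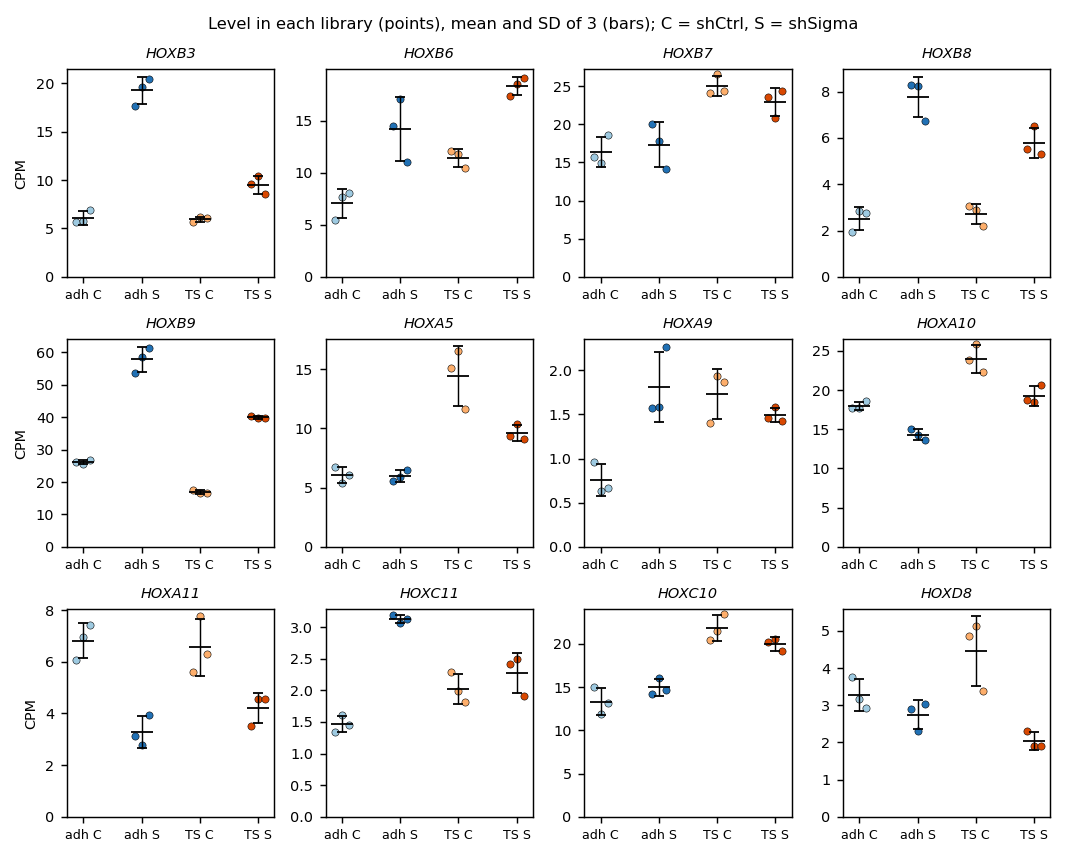
CPM of 12 HOX genes in each library (points), with the mean and SD of 3 libraries (bars), for adherent (adh) and tumor sphere (TS) cells with shCtrl (C) or shSigma (S). HOXB3, HOXB6, HOXB8 and HOXB9 are higher with shSigma in both cultures, HOXA10 and HOXA11 are lower, and HOXB7 and HOXC10 differ by culture more than by hairpin.

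RefSeq promoter windows (250 bases before to 50 after a start, GRCh38.p14) were held for 20 of the 39 members, in 26 distinct windows, since HOXC4 and HOXC5 have the same one. They are shown for some of the HOXA and HOXD genes called after knockdown, so that the sequence around their starts can be compared. Of HOXB only HOXB1 has a window, so the HOXB genes called after knockdown are not covered. HOXA3 holds several of the windows. The CCAAT box (letters CCAAT), the TATA box (TATAAA) and the GC box (GGGCGG) were searched on both strands, and a match of one may overlap a match of another. The CCAAT box was present in 17 of the 26 windows, or in windows of 17 of the 20 genes, beside 34.6% of all 34943 distinct promoter windows. The TATA box was in 5 windows (11.6% of all promoters) and the GC box in 13 (44.9%). The median number of CG dinucleotides was 22.5 in the HOX windows and 14 in all promoters. Capitals below mark matches of these motifs. HOXA9 (chr7:27165488-27165787, minus strand) rose in adherent cells, HOXA10 (chr7:27174271-27174570, minus strand, 1 of its 2 windows) and HOXA11 (chr7:27185183-27185482, minus strand) fell in both cultures, and HOXD8 (chr2:176129455-176129754, plus strand) and HOXD1 (chr2:176188418-176188717, plus strand) fell in spheres.
HOXA9: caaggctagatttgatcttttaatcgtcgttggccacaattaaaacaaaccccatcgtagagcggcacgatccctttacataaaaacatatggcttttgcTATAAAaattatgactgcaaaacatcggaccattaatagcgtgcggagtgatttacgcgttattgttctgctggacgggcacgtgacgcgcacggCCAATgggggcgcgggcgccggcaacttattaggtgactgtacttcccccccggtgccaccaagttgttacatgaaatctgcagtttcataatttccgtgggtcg
HOXA10: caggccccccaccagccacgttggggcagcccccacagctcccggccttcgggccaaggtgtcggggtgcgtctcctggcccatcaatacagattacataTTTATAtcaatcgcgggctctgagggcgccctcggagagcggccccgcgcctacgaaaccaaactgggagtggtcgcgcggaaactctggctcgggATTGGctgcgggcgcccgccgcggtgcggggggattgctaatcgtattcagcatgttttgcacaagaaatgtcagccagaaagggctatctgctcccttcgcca
HOXA11: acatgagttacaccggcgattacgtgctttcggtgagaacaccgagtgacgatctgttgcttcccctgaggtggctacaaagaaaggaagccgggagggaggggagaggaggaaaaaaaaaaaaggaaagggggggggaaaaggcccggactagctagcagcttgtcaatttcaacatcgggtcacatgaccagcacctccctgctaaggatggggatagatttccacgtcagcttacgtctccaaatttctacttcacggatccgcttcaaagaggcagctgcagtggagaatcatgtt
HOXD8: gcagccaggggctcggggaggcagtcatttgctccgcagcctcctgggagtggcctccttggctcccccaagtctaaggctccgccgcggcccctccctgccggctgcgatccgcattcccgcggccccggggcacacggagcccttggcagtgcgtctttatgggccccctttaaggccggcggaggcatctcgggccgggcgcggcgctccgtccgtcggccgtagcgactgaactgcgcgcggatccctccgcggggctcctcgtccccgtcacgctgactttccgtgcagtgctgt
HOXD1: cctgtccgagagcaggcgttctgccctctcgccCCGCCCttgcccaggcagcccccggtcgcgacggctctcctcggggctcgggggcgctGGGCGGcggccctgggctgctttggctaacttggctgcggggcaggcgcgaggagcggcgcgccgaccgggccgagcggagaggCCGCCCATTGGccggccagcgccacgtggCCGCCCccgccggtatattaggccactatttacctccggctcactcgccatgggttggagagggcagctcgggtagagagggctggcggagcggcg
The HOXA9 and HOXA10 windows each hold 1 CCAAT box and 1 TATA box, that of HOXD1 holds 1 CCAAT box and 4 GC boxes, and those of HOXA11 and HOXD8 hold none of the 3. The absence says only that these letters are not in the window.

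The anterior genes HOXA2 and HOXA3, which act in the hindbrain and pharyngeal arches, were higher after knockdown in adherent cells. In adherent cells HOXA2 was at 1.77, 1.48 and 1.14 CPM in shCtrl and at 2.86, 2.1 and 2.6 CPM in shSigma. In tumor spheres HOXA2 was at 1.87, 2.92 and 2.12 CPM in shCtrl and at 1.51, 2.22 and 1.43 CPM in shSigma. HOXA2 was low, with separated hairpins in adherent cells (0.72, SE 0.226, adjusted p = 0.0318) and overlapping ones in spheres (-0.42, 95% interval -0.95 to 0.10, adjusted p = 0.143). In adherent cells HOXA3 was at 9.79, 9.09 and 10.5 CPM in shCtrl and at 14.8, 14.2 and 12.3 CPM in shSigma. In tumor spheres HOXA3 was at 16.4, 17.8 and 12.9 CPM in shCtrl and at 15.6, 15 and 12.9 CPM in shSigma. HOXA3 rose in adherent cells (0.43, SE 0.126, adjusted p = 0.0234), while its sphere groups overlapped (-0.11, 95% interval -0.39 to 0.16, adjusted p = 0.453). Both adherent calls were near the threshold. That of HOXA2 was lost in DESeq2 (adjusted p = 0.1253), with the replicate block (0.0626) and without shSigma replicate 1 or shCtrl replicate 2 or 3 (0.0593 to 0.0821). That of HOXA3 was lost with the replicate block (adjusted p = 0.0948) and without shSigma replicate 1 or shCtrl replicate 2 (0.0538 and 0.0552).

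Central HOXA genes did not move together. In adherent cells HOXA5 was at 6.72, 5.37 and 6.03 CPM in shCtrl and at 5.57, 5.89 and 6.51 CPM in shSigma. In tumor spheres HOXA5 was at 15.1, 16.6 and 11.6 CPM in shCtrl and at 9.32, 10.4 and 9.11 CPM in shSigma. HOXA5, which acts in lung and mammary epithelium, overlapped between hairpins in adherent cells and was highest in shCtrl spheres. Its log2 fold change was -0.08, 95% interval -0.39 to 0.23, adjusted p = 0.653 in adherent cells, and in spheres it fell (-0.59, SE 0.132, adjusted p = 0.00222). In adherent cells HOXA7 was at 1.19, 1.01 and 1.89 CPM in shCtrl and at 0.666, 0.768 and 0.482 CPM in shSigma. In tumor spheres HOXA7 was at 0.761, 1.27 and 0.806 CPM in shCtrl and at 0.857, 0.477 and 0.9 CPM in shSigma. HOXA7 was near 1 CPM and fell in adherent cells (-1.15, SE 0.323, adjusted p = 0.02), with overlap in spheres (-0.34, 95% interval -1.05 to 0.37, adjusted p = 0.383). The adherent call was lost in DESeq2 (adjusted p = 0.0892), with the replicate block (0.0699) and without shSigma replicate 1 (0.0634) or shCtrl replicate 3 (0.0564). Of the HOXA7 exon bases, 62.5% lie opposite HOXA-AS3, whose reads cannot be told apart from HOXA7 if strand was not used in counting. HOXA6 ranged from 0.723 to 4.24 CPM over the 12 libraries and was not called in either culture. HOXA4 had at most 9 counts in any library and was not tested.

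The posterior HOXA genes did not all move the same way. In adherent cells HOXA11 was at 6.07, 6.98 and 7.41 CPM in shCtrl and at 3.14, 2.76 and 3.95 CPM in shSigma. In tumor spheres HOXA11 was at 5.62, 7.78 and 6.3 CPM in shCtrl and at 3.53, 4.55 and 4.55 CPM in shSigma. HOXA11, needed for limb and reproductive tract development, was lower in every shSigma library of both cultures. It fell by 1.11 on the log2 scale in adherent cells (SE 0.154, adjusted p = 7.84e-04) and by 0.65 in spheres (SE 0.16, adjusted p = 0.00417). In adherent cells HOXA10 was at 17.7, 17.8 and 18.6 CPM in shCtrl and at 15, 14.3 and 13.7 CPM in shSigma. In tumor spheres HOXA10 was at 23.9, 25.9 and 22.3 CPM in shCtrl and at 18.7, 18.4 and 20.7 CPM in shSigma. HOXA10, a neighbour with roles in the uterus and in blood cells, was the highest HOXA gene per kb of exon in adherent shCtrl cells and was also lower with shSigma without overlap, by less, with log2 fold changes of -0.39, SE 0.0939, adjusted p = 0.0102 and -0.32, SE 0.0864, adjusted p = 0.00688. The adherent call of HOXA10 was lost in DESeq2 (adjusted p = 0.0508), with the replicate block (0.068) and without shSigma replicate 1 or 2 or shCtrl replicate 2 (0.0512 to 0.0665). Of the HOXA11 exon bases, 27.2% lie opposite HOXA11-AS, and of those of HOXA10, 16.4% lie opposite other transcripts, with HOXA10-AS there.

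HOXA9, best known from leukemia, lies next to HOXA10 and was the posterior HOXA gene that rose. In adherent cells HOXA9 was at 0.96, 0.634 and 0.67 CPM in shCtrl and at 1.57, 1.59 and 2.27 CPM in shSigma. In tumor spheres HOXA9 was at 1.41, 1.93 and 1.86 CPM in shCtrl and at 1.46, 1.59 and 1.43 CPM in shSigma. In adherent cells all shSigma libraries were above all shCtrl libraries (1.18, SE 0.254, adjusted p = 0.00632). In spheres the hairpins overlapped (-0.23, 95% interval -0.68 to 0.23, adjusted p = 0.369). At 13.9% of its exon bases HOXA9 lies opposite HOXA10-AS, which also rose in adherent cells (1.13, adjusted p = 0.00414), and 15.9% are shared on the same strand with other annotated transcripts. In adherent cells HOXA13 was at 3.65, 4.27 and 3.71 CPM in shCtrl and at 4.19, 5.53 and 5.69 CPM in shSigma. In tumor spheres HOXA13 was at 3.34, 4.58 and 3.73 CPM in shCtrl and at 2.97, 4.18 and 2.01 CPM in shSigma. HOXA13, a gene of the distal limb and urogenital tract, overlapped between hairpins in both cultures, with log2 fold changes of 0.34, 95% interval -0.03 to 0.71, adjusted p = 0.113 and -0.35, 95% interval -0.88 to 0.18, adjusted p = 0.227.

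In HOXC a single gene rose. In adherent cells HOXC11 was at 1.34, 1.61 and 1.46 CPM in shCtrl and at 3.19, 3.07 and 3.13 CPM in shSigma. In tumor spheres HOXC11 was at 2.28, 1.99 and 1.81 CPM in shCtrl and at 2.42, 2.49 and 1.91 CPM in shSigma. HOXC11, a posterior gene of the hindlimb, was 2.04-fold higher in adherent shSigma cells (1.03, SE 0.154, adjusted p = 0.00117), and the hairpins overlapped in spheres (0.17, 95% interval -0.25 to 0.59, adjusted p = 0.47). In adherent cells HOXC9 was at 7.64, 6.22 and 6.03 CPM in shCtrl and at 5.28, 4.5 and 5.01 CPM in shSigma. In tumor spheres HOXC9 was at 6.91, 10.6 and 9.22 CPM in shCtrl and at 8.82, 8.37 and 8.84 CPM in shSigma. HOXC9 fell in adherent cells (-0.49, SE 0.151, adjusted p = 0.0291) and overlapped in spheres (-0.04, 95% interval -0.35 to 0.27, adjusted p = 0.8). Its adherent call was lost in DESeq2 (adjusted p = 0.117), with the replicate block (0.0734) and without shSigma replicate 1, 2 or 3 or shCtrl replicate 1 or 2 (0.0581 to 0.145). The log2 fold change was -0.31 without shCtrl replicate 1. In adherent cells HOXC6 was at 3.92, 4.74 and 4.06 CPM in shCtrl and at 3.9, 4.56 and 4 CPM in shSigma. In tumor spheres HOXC6 was at 8.02, 6.46 and 5.99 CPM in shCtrl and at 3.98, 4.87 and 5.03 CPM in shSigma. HOXC6, often raised in prostate tumors, overlapped between hairpins in adherent cells (-0.09, 95% interval -0.44 to 0.26, adjusted p = 0.641), and in spheres it fell (-0.56, SE 0.152, adjusted p = 0.00711).

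HOXC8 had the largest adjusted p of the members called in spheres. In adherent cells HOXC8 was at 3.8, 4.95 and 3.39 CPM in shCtrl and at 3.24, 2.61 and 4 CPM in shSigma. In tumor spheres HOXC8 was at 7.38, 8.44 and 6.2 CPM in shCtrl and at 5.69, 6.3 and 5.08 CPM in shSigma. Its sphere groups overlapped, with a log2 fold change of -0.36, SE 0.143, adjusted p = 0.0436. The sphere call was lost in DESeq2 (adjusted p = 0.1), in 1 fit of all 12 libraries (0.108) and without sphere shSigma replicate 1 or 3 or shCtrl replicate 1 or 2 (0.0807 to 0.154). In adherent cells the log2 fold change was -0.37, 95% interval -0.85 to 0.12, adjusted p = 0.184. In adherent cells HOXC10 was at 15, 11.8 and 13.2 CPM in shCtrl and at 14.2, 16 and 14.7 CPM in shSigma. In tumor spheres HOXC10 was at 20.5, 21.5 and 23.4 CPM in shCtrl and at 20.3, 20.6 and 19.1 CPM in shSigma. HOXC10, the highest HOXC gene per kb of exon, overlapped between hairpins in both cultures (0.10, 95% interval -0.19 to 0.40, adjusted p = 0.529 in adherent cells and -0.13, 95% interval -0.32 to 0.06, adjusted p = 0.207 in spheres). In adherent cells HOXC13 was at 6.53, 6.34 and 7.41 CPM in shCtrl and at 7.57, 9.37 and 9.21 CPM in shSigma. In tumor spheres HOXC13 was at 6.26, 6.35 and 5.89 CPM in shCtrl and at 6.3, 6.67 and 7.15 CPM in shSigma. HOXC13, known from hair and nail, did not pass in either culture (0.30, 95% interval 0.01 to 0.60, adjusted p = 0.083 and 0.12, 95% interval -0.14 to 0.37, adjusted p = 0.398).

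HOXC4 and HOXC5 lie at the anterior end of the cluster. In adherent cells HOXC4 was at 1.11, 0.888 and 0.947 CPM in shCtrl and at 1.38, 1.69 and 1.45 CPM in shSigma. In tumor spheres HOXC4 was at 0.878, 0.662 and 0.907 CPM in shCtrl and at 1.01, 0.794 and 0.635 CPM in shSigma. HOXC4 was higher in all adherent shSigma libraries, but its adjusted p missed the threshold (0.55, 95% interval 0.06 to 1.03, adjusted p = 0.0606), and in spheres the estimate was -0.01, 95% interval -0.64 to 0.63, adjusted p = 0.986. HOXC5 had 8 to 16 counts in adherent shCtrl and 1 to 4 in adherent shSigma libraries and was removed by the filter on low counts, and without that filter its adherent log2 fold change was -1.80 (adjusted p = 0.0153). Of its exon bases, 67.3% are shared with an overlapping gene of the table on the same strand.

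In HOXD the expressed genes are HOXD1 at one end and the neighbours HOXD8 and HOXD9. In adherent cells HOXD8 was at 3.76, 3.17 and 2.92 CPM in shCtrl and at 2.9, 2.3 and 3.04 CPM in shSigma. In tumor spheres HOXD8 was at 4.86, 5.13 and 3.38 CPM in shCtrl and at 2.32, 1.91 and 1.91 CPM in shSigma. HOXD8 overlapped between hairpins in adherent cells (-0.32, 95% interval -0.74 to 0.09, adjusted p = 0.17). In spheres every shSigma library was below every shCtrl library, and HOXD8 was 2.17-fold lower (-1.11, SE 0.196, adjusted p = 4.04e-04). In adherent cells HOXD1 was at 2.73, 2.37 and 2.76 CPM in shCtrl and at 2.05, 2.1 and 1.64 CPM in shSigma. In tumor spheres HOXD1 was at 2.11, 2.37 and 2.37 CPM in shCtrl and at 0.907, 1.91 and 0.794 CPM in shSigma. HOXD1 fell in spheres (-0.93, SE 0.287, adjusted p = 0.0144), and in adherent cells its groups did not overlap but the adjusted p missed the threshold (-0.50, 95% interval -0.92 to -0.08, adjusted p = 0.0507). The sphere call was lost without sphere shSigma replicate 1 or 3 (adjusted p 0.0578 and 0.0604), and the log2 fold change was -1.42 without sphere shSigma replicate 2. HOXD1 lies opposite HAGLR over 60.1% of its exon bases, and HAGLR rose in spheres (0.84, adjusted p = 1.80e-05). HOXD9 ranged from 2.09 to 4.08 CPM over the 12 libraries, with log2 fold changes of -0.34, 95% interval -0.79 to 0.10, adjusted p = 0.172 and -0.40, 95% interval -0.76 to -0.04, adjusted p = 0.0507.

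The next question was how HOX expression differed between culture forms. These comparisons use the same libraries as the knockdown comparisons and are not independent of them. In shCtrl cells, 10 of 29 tested members rose and 1 fell in spheres, where 27.4% of all genes were called higher and 26.3% lower, and the median of the members was 0.41 beside 0.04 over all genes. By position, 6 of 13 tested central, 3 of 10 posterior and 1 of 6 anterior members rose. HOXA5 rose 2.38-fold (1.25, SE 0.161, adjusted p = 3.96e-04) and HOXA9 2.28-fold (1.19, SE 0.247, adjusted p = 0.00447). HOXC8 (0.86, adjusted p = 0.00543), HOXC10 (0.71, adjusted p = 0.00129), HOXB6 (0.69, adjusted p = 0.00823), HOXC6 (0.68, adjusted p = 0.00716), HOXA3 (0.68, adjusted p = 0.00446), HOXB5 (0.67, adjusted p = 0.0467), HOXB7 (0.61, adjusted p = 0.00219) and HOXA10 (0.41, adjusted p = 0.00553) were the others. The call of HOXB5 was lost with the replicate block (adjusted p = 0.11) and without adherent shCtrl replicate 1 or 2 or sphere shCtrl replicate 1 or 2 (0.0633 to 0.148). Its log2 fold change was 0.38 without sphere shCtrl replicate 2. HOXB9 was the member that fell (-0.63, SE 0.0794, adjusted p = 3.71e-04).

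In shSigma cells, 6 of 28 tested members rose and 6 fell in spheres, beside 21.9% and 25.2% of all genes, with a median of 0.06 against 0.00. HOXC9 (0.83, adjusted p = 6.57e-04), HOXC8 (0.82, adjusted p = 0.00562), HOXA5 (0.70, adjusted p = 0.00142), HOXA10 (0.45, adjusted p = 0.00556), HOXC10 (0.44, adjusted p = 0.00503) and HOXB7 (0.42, adjusted p = 0.0446) were higher in spheres. HOXB3 was 2-fold lower (-0.997, SE 0.103, adjusted p = 2.17e-04), and HOXB9 again fell (-0.51, SE 0.0603, adjusted p = 4.07e-04). HOXC4 (-0.86, adjusted p = 0.0214), HOXB4 (-0.74, adjusted p = 0.0211), HOXA13 (-0.72, adjusted p = 0.049) and HOXC13 (-0.35, adjusted p = 0.0417) fell as well, and these 4 calls and that of HOXB7 were each lost in at least 3 fits that left out 1 shSigma library, with adjusted p up to 0.145, and the first 4 also in DESeq2 (adjusted p 0.053 to 0.159). The libraries were adherent shSigma replicates 1 and 2 and sphere shSigma replicates 1, 2 and 3. The log2 fold change of HOXB7 was 0.28 without adherent shSigma replicate 3. HOXA5, HOXA10, HOXB7, HOXC8 and HOXC10 were called higher in spheres and HOXB9 lower with either hairpin.

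**Figure D5:**
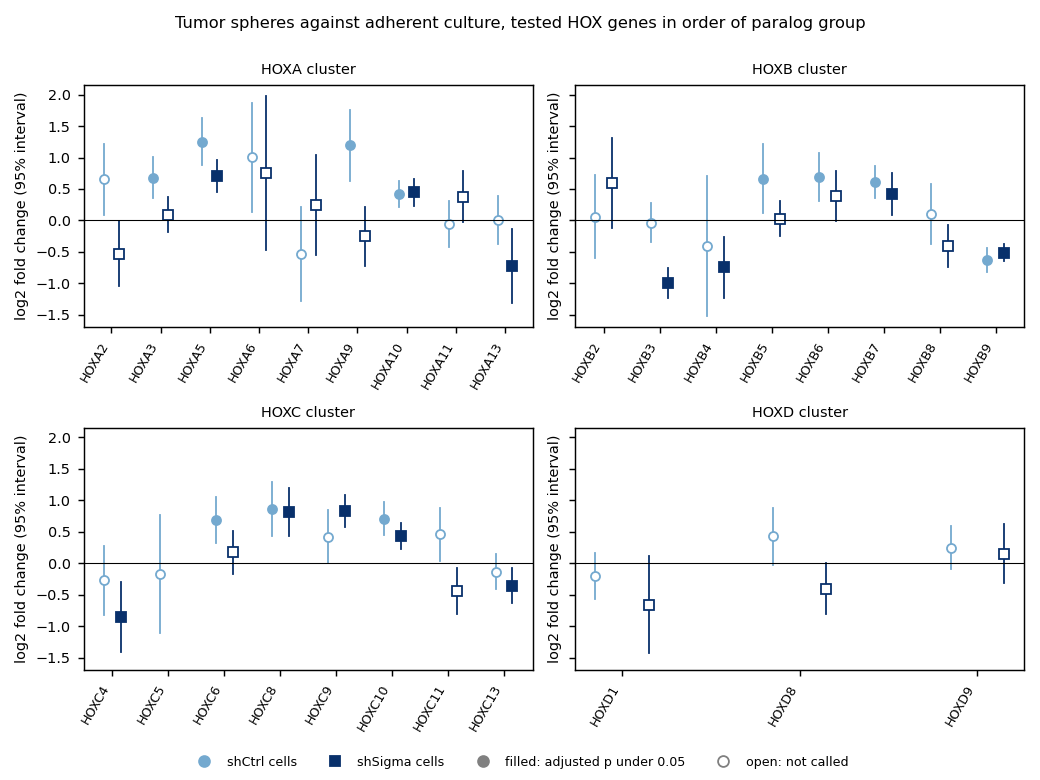
Log2 fold change of tumor spheres against adherent culture with its 95% interval for the tested HOX genes named in the text, in order of paralog group, with 1 panel per cluster, circles for shCtrl cells and squares for shSigma cells. Filled symbols have an adjusted p under 0.05, HOXA5, HOXB7, HOXC8 and HOXC10 are above 0 with both hairpins, HOXB9 is below 0 with both, and HOXB3 is near 0 with shCtrl and below 0 with shSigma.

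Whether the knockdown difference itself changed with culture was tested as the interaction over all 12 libraries, spheres minus adherent cells. Of 28 tested members 7 had a lower value in spheres and 0 a higher one, where 15.6% of all genes tested were lower and 12.7% higher, and the median of the members was -0.34 beside -0.03 over all genes. The 7 were HOXA9 (-1.47, SE 0.327, adjusted p = 0.00409), HOXA2 (-1.21, SE 0.34, adjusted p = 0.0165), HOXB3 (-0.99, SE 0.166, adjusted p = 5.65e-04), HOXC11 (-0.92, SE 0.234, adjusted p = 0.00919), HOXD8 (-0.86, SE 0.272, adjusted p = 0.0294), HOXA3 (-0.60, SE 0.184, adjusted p = 0.0245) and HOXA5 (-0.57, SE 0.199, adjusted p = 0.0459). HOXA9, HOXA2, HOXA3 and HOXC11 were higher with shSigma in adherent cells and not called in spheres, HOXB3 rose in both but less in spheres, and HOXA5 and HOXD8 fell in spheres and were not called in adherent cells. For HOXB9 the interaction was 0.09, 95% interval -0.12 to 0.30, adjusted p = 0.535, and for HOXA10 it was 0.01, 95% interval -0.25 to 0.28, adjusted p = 0.949. The count of 7 was 3 without adherent shSigma replicate 1, sphere shSigma replicate 3 or sphere shCtrl replicate 2, 4 without adherent shCtrl replicate 2 or sphere shCtrl replicate 1, and 4 in DESeq2.

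The TALE cofactors that HOX proteins bind with were also measured. Of 9 listed, 7 were tested, and 2 rose and 2 fell in adherent cells, while 1 rose and 1 fell in spheres. Beside the counts of this list and those below, the shares over all genes tested were 22.3% higher and 27.7% lower in adherent cells. In spheres they were 30.2% and 30.9%. MEIS2 was at 23.1 ± 0.72 and 13.7 ± 0.494 CPM in adherent cells and at 26.1 ± 1.49 and 11.7 ± 0.462 CPM in spheres, and it fell in both (-0.82, adjusted p = 2.05e-04 and -1.16, adjusted p = 3.76e-07). MEIS1 fell (-0.53, adjusted p = 0.0155) and MEIS3 rose (1.75, adjusted p = 0.00133) in adherent cells. The call of MEIS1 was lost in DESeq2 (adjusted p = 0.103), with the replicate block and without adherent shSigma replicate 1 or 2 or shCtrl replicate 1 or 2 (0.0663 to 0.119). PBX2 was listed at 0 in every library, as were PHF1 and RING1 among the Polycomb genes. Since the annotation used in counting is not given, a silent gene and an uncounted one cannot be told apart here.

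Other transcripts from inside the clusters, mostly noncoding, were higher after knockdown wherever they were called. Of 27 listed, 9 were tested in adherent cells, where 4 rose and 0 fell, and 8 in spheres, where 5 rose and 0 fell. These counts stand beside 22.3% of all genes tested called higher in adherent cells and 30.2% in spheres. HOTAIR, the HOXC transcript that acts with Polycomb complexes, was at 1.34, 1.48 and 2.13 CPM in adherent shCtrl and 4.28, 3.28 and 4.87 in adherent shSigma libraries. In spheres it was at 1.41, 1.16 and 1.46 and 2.32, 2.33 and 2.17 CPM, and shSigma was higher without overlap in both cultures (1.26, adjusted p = 0.00234 and 0.75, adjusted p = 0.00511). HOTAIRM1, at the anterior end of HOXA, rose from 2.34 ± 0.5 to 6.79 ± 0.622 CPM in adherent cells (1.47, adjusted p = 6.49e-04) and from 3.72 ± 0.808 to 5.74 ± 0.598 CPM in spheres (0.62, adjusted p = 0.00656). HOXC-AS3 (0.86, adjusted p = 0.037) rose in adherent cells, and HOXA11-AS (0.91, adjusted p = 0.00244) and HOXC-AS1 (0.60, adjusted p = 0.0279) rose in spheres. The call of HOXC-AS3 was lost in DESeq2 (adjusted p = 0.3) and without adherent shSigma replicate 1 or 3 or shCtrl replicate 1 or 2 (0.0815 to 0.113). It was also lost with no filter on low counts and with the replicate block. That of HOXC-AS1 was lost in DESeq2 (adjusted p = 0.175) and without sphere shSigma replicate 2 or 3 or shCtrl replicate 2 or 3 (0.0553 to 0.0915). The same held with no filter on low counts and in 1 fit of all 12 libraries. Since the use of strand in counting is not given in the sources used here, counts of antisense transcripts are less certain than the others.

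Calls among the genes beside the clusters also went both ways. Of 20 flanking genes tested, 5 rose and 5 fell in adherent cells, and 9 rose and 4 fell in spheres. SKAP1, an adaptor of T cell signaling 98.3 kb from the HOXB1 end of HOXB, was at 0.23, 0.423 and 0.237 CPM in adherent shCtrl and at 7.09, 6.45 and 8.63 in adherent shSigma libraries. In spheres it was at 0.176, 0.442 and 0.252 and 6.7, 5.88 and 5.51 CPM. The shSigma libraries were higher without overlap in both cultures, and the log2 fold changes were 4.56, SE 0.244, adjusted p = 1.33e-05 and 4.34, SE 0.252, adjusted p = 5.20e-08. On the HOXB13 side, 102.3 kb away, the autophagy receptor CALCOCO2 was not called in adherent cells and rose slightly in spheres (0.22, adjusted p = 0.00606). TTLL6, nearer on that side at 33.5 kb, was called in neither culture, and ATP5MC1, a subunit of the mitochondrial ATP synthase at 164 kb, fell in adherent cells (-0.88, adjusted p = 5.13e-04) and was not called in spheres (-0.05, adjusted p = 0.61). SKAP2, an adaptor protein gene and the nearest listed flank of HOXA at 97.8 kb, was not called in adherent cells (0.11, adjusted p = 0.361) and fell in spheres (-0.87, adjusted p = 5.47e-08). Beside HOXC, CALCOCO1 (211 kb) rose in both cultures (1.13, adjusted p = 1.32e-05 and 0.46, adjusted p = 5.02e-05), as did the metabolic gene HIBADH (325 kb from HOXA, 0.89, adjusted p = 2.30e-04 and 0.33, adjusted p = 1.46e-04). LNPK, 89.9 kb from HOXD, fell in both (-0.38, adjusted p = 0.00481 and -0.50, adjusted p = 1.96e-05), though not called in adherent cells without shSigma replicate 1 or 2 or shCtrl replicate 2 (0.0544 to 0.0594).

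Among regulators of the clusters, calls went both ways. Of 27 Polycomb genes tested, 6 rose and 6 fell in adherent cells, and 9 rose and 6 fell in spheres. MTF2, a subunit that recruits PRC2, fell from 80.0 ± 4.12 to 42.1 ± 1.91 CPM in adherent cells (-0.99, adjusted p = 5.06e-05) and by less in spheres (-0.42, adjusted p = 4.16e-04). EZH1, a catalytic subunit, rose in both (0.44, adjusted p = 0.00155 and 0.76, adjusted p = 5.67e-07), and CBX2, which reads the PRC2 mark, fell in both (-0.68, adjusted p = 0.0377 and -0.59, adjusted p = 0.00178). The adherent call of CBX2 was lost in DESeq2 (adjusted p = 0.0933), with the replicate block and without shSigma replicate 1 or 3 or shCtrl replicate 2 or 3 (0.0764 to 0.114). Of 17 Trithorax and related genes, 2 rose and 0 fell in adherent cells, among them MLLT3 (0.81, adjusted p = 3.21e-04), and 6 rose and 2 fell in spheres, among them KMT2A (0.37, adjusted p = 0.00528).

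In the retinoic acid pathway, 2 of 9 tested genes rose and 3 fell in adherent cells, and 3 of 10 rose and 5 fell in spheres. ALDH1A3, which makes retinoic acid, was at 251, 253 and 249.9 CPM in adherent shCtrl and 62.7, 64.7 and 70.3 in adherent shSigma libraries. In spheres it was at 517, 489.6 and 494 and 142, 118 and 133 CPM, so that shSigma was lower in both cultures (-2.00, SE 0.0594, adjusted p = 1.97e-06 and -1.94, SE 0.0676, adjusted p = 8.39e-10). The receptor RARA rose in both (1.04, adjusted p = 0.0276 and 0.65, adjusted p = 6.20e-04), and CRABP2, which carries retinoic acid to the nucleus, fell in both (-0.42, adjusted p = 0.00458 and -1.91, adjusted p = 3.90e-09). The adherent call of RARA was lost without shSigma replicate 1 or 2 or shCtrl replicate 2 (adjusted p 0.0592 to 0.0703). It was also lost with no filter on low counts and with the replicate block (up to 0.085). That of CRABP2 was lost without shSigma replicate 1 or shCtrl replicate 2 (0.0806 and 0.0522). In shCtrl cells 7 of 10 tested genes of the pathway were higher in spheres and 0 lower, beside 27.4% and 26.3% of all genes tested. Of the CDX and related homeobox and hindbrain factors, 3 of 12 were tested in adherent cells, where 0 rose and 2 fell, and 4 in spheres, where 0 rose and 3 fell. CDX2 was at 0 in every library, and GBX2 fell in both cultures (-1.45, adjusted p = 6.58e-04 and -1.18, adjusted p = 0.00207).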

How the data were processed

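Directional RNA-seq libraries of adherent and sphere-grown DU145 cells, 3 per group, were read from a single end. The authors aligned the reads to GRCh38.p12 with STAR 2.6.1c, as the submitters' processing notes give it, and deposited raw counts per Ensembl gene without normalization. The annotation and the use of strand in counting are not given in the sources used here. The labels gave the groups and the replicate numbers. GENCODE release 44 holds 26153 of the 28747 identifiers. The members, the gene lists and the tests were chosen with earlier results of these data known.

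CPM and tests were computed from the deposited counts with edgeR 4.0.16 in R 4.3.3, with TMM scaling, filterByExpr at a minimum count of 10, a prior count of 0.125 and the robust quasi-likelihood test, two-sided. P-values were adjusted by Benjamini-Hochberg over every gene that passed the filter, and calls were made at an adjusted p under 0.05. Each comparison was fitted on its own 6 libraries, and the interaction on all 12. Levels per kb use GENCODE exon length, which may differ from the authors' annotation. Every member with at least 1 CPM in any group, HOXB13 and all posterior members are named, with values in every library for those called, apart from some results, among them the level of the hairpin's target, that are not reported here. Genes of the other lists (TALE cofactors, Polycomb, Trithorax, retinoic acid pathway, CDX and related factors, transcripts inside the clusters, flanking genes, and epithelial, luminal, leukocyte, endothelial, fibroblast and muscle markers) were named where called or where they help to place a member. A floor of 3 counts was used for genes at 0, and it covers counting error only, since reads carry no molecular identifiers. No replicate pair was closer than sampling noise. The procedure was tested on simulated data. Alternatives were a fit in DESeq2 1.42.0, edgeR with DESeq2 size factors or with upper-quartile scaling, other filters and thresholds, 1 fit of all 12 libraries, the replicate block, and fits that each left out 1 library. Figures were drawn with matplotlib 3.10.9.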

Additional observations from a re-analysis of the deposited data

Results flagged for a closer look

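The knockdown difference of 7 HOX genes differed between tumor spheres and adherent cells by the interaction test. The values are log2 fold changes in spheres minus those in adherent cells, and all 7 were below 0. HOXA9 had an interaction of -1.47 (adjusted p = 0.00409), with log2 fold changes of 1.18 in adherent cells and -0.23 in spheres. For HOXA2 it was -1.21 (adjusted p = 0.0165), from 0.72 in adherent cells and -0.42 in spheres. HOXB3 had -0.99 (adjusted p = 5.65e-04), from 1.59 in adherent cells and 0.67 in spheres. HOXC11 had -0.92 (adjusted p = 0.00919), from 1.03 in adherent cells and 0.17 in spheres. For HOXD8 the value was -0.86 (adjusted p = 0.0294), from -0.32 in adherent cells and -1.11 in spheres. HOXA3 had -0.60 (adjusted p = 0.0245), from 0.43 in adherent cells and -0.11 in spheres. The smallest was HOXA5 at -0.57 (adjusted p = 0.0459), from -0.08 in adherent cells and -0.59 in spheres. HOXA9 and HOXB3 were called in every alternative fit, and HOXC11 lost its call in DESeq2 alone (adjusted p = 0.0787). HOXA2 lost its call without adherent shSigma replicate 1, sphere shSigma replicate 3 or sphere shCtrl replicate 2 (adjusted p 0.0522 to 0.0617). Among the fits that left out a library, HOXA5 kept its call only without adherent shCtrl replicate 1 or sphere shCtrl replicate 3 (adjusted p up to 0.173 in the others). Its call was also lost in DESeq2 (0.107), with DESeq2 size factors in edgeR (0.062), with no filter on low counts (0.095), with at least 10 counts in every library (0.0668) and with the replicate block (0.0777). HOXD8 kept it without adherent shSigma replicate 2, adherent shCtrl replicate 1, sphere shSigma replicate 1 or sphere shCtrl replicate 3 (up to 0.1 in the others), and lost it in DESeq2 (0.0906) and with no filter on low counts (0.0514). HOXA3 kept it without adherent shSigma replicate 3, adherent shCtrl replicate 3, sphere shSigma replicate 1 or 2 or sphere shCtrl replicate 3 (up to 0.102 in the others).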

How the results depend on the processing

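Among 57 calls of single HOX genes, 37 held in every alternative fit that gave a value, 20 were lost in at least 1 and 0 changed direction. Of 95 calls of genes in the other lists, 24 were lost in at least 1 alternative and 0 changed direction. In adherent cells the 15 HOX genes called after knockdown became 9 with the replicate block, 9 at an adjusted p under 0.01 and 8 when a log2 fold change beyond 1 in size was also required, with 10 to 14 when a library was left out. In spheres the 12 called became 4 with the fold change threshold, with 9 to 13 when a library was left out. For spheres against adherent cells, the 11 called in shCtrl cells became 2 with the fold change threshold (10 to 12 with a library left out). The 12 called in shSigma cells became 0 with it, and 7 at an adjusted p under 0.01 (8 to 15 with a library left out). The 7 called for the interaction became 4 in DESeq2, 2 with the fold change threshold and 3 at an adjusted p under 0.01, and 3 to 8 when a library was left out. Same-numbered replicates deviated together in 5 of 18 pairs at a correlation over 0.1 (range -0.85 to 0.43), so the numbers were not taken as a pairing. Adherent shSigma and shCtrl libraries of different number had correlations from -0.74 (shSigma replicate 2 with shCtrl replicate 1) to 0.82 (shSigma replicate 3 with shCtrl replicate 1). Deviations were thus shared between these groups under other numbers, and the source of this was not tested. Members with few counts, among them HOXB2, HOXB4, HOXA4 and HOXC5, are known only within wide intervals at this depth.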
